A study of Mus musculus with 16 samples.

Results

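The unfolded protein response and the folding machinery it controls were followed here through 32 mouse genes, chosen by name among the 27998 genes of the count tables, with earlier results of these data known. The cells came from the bone marrow of 16 C57BL/6 mice aged 6 to 12 weeks, depleted of red cells by lysis and of mature cells by lineage antibodies, and profiled by droplet 3′ single-cell RNA sequencing. The 4 groups of 4 mice were WT (Tet2 fl/fl) given vehicle, WT given IL1β, Tet2-KO (Vav-Cre-Tet2-/-, made by Vav-Cre in Tet2 fl/fl mice, in which Cre is driven in the whole blood system) given vehicle, and Tet2-KO given IL1β. IL1β, an inflammatory cytokine, was injected into the peritoneum at 500 ng per mouse per day for 5 weeks. Antibody tags marked each mouse, and 2 mice of the same group were pooled in each of 8 libraries, so that a group had 2 libraries and no library held mice of more than 1 group. The study asked how chronic IL1β and loss of TET2, a DNA demethylating enzyme often lost in clonal haematopoiesis, act together on blood progenitors.

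Proteins destined for membranes and secretion enter the endoplasmic reticulum (ER) through the SEC61 channel, lose their signal peptide, and are folded by chaperones and by enzymes that form disulfide bonds or turn proline bonds. When unfolded proteins build up, the chaperone BiP (Hspa5) leaves the sensors IRE1α (Ern1), ATF6 and PERK, and these switch on chaperones through XBP1, ATF6 and ATF4 and remove hopeless clients by ER-associated degradation. Plasma cells, which secrete antibody, depend on XBP1 and carry the most developed ER of all blood cells. The 32 genes fall by role into 10 Hsp70 and Hsp90 chaperones with their cofactors (Hspa5, Hsp90b1, Hspa13, Hyou1, Dnajb9, Dnajb11, Dnajc3, Sdf2l1, Manf and Creld2), 7 lectin chaperones and disulfide or prolyl isomerases (Calr, Canx, Pdia3, Pdia4, Pdia6, P4hb and Ppib), 6 sensors and transcription factors (Xbp1, Atf4, Atf6, Ddit3, Ern1 and Trib3), 4 degradation genes (Herpud1, Sel1l, Syvn1 and Edem1), and 5 genes of translocation and signal peptide removal (Sec61b, Sec61a1, Ssr1, Ssr3 and Spcs2).

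Of 94917 cells with at least 750 genes and at most 10% mitochondrial UMIs (unique molecular identifiers, each 1 captured RNA molecule), 57896 were assigned to a mouse by their tags. The 3938 tag doublets were left out. The 33083 cells with no clear tag were also left out, except in the fits that took pools as replicates. A mouse had 698 to 6432 cells and 4388604 to 44152768 UMIs. Between 11 and 57 cell barcodes were shared by a pair of libraries, at most 0.512% of the smaller. Clustering gave 18 classes named from fixed markers and called "-like", among them HSC-like (haematopoietic stem cell, 5143 cells), Prog-like (multipotent progenitor, 1683), IMP-like (immature myeloid progenitor, 2796), Gran/Mono Prog-like (granulocyte and monocyte progenitor, 12039), MEP-like, CFU-E-like and EryB-like (successive erythroid stages) and plasma cell-like (1130). The 3′ reads of Tet2 do not check the genotype, and Tet2 was at 31.0 to 46.9 CPM (UMIs of a gene per 1000000 UMIs) in the vehicle mice and 53.4 to 77.9 in the IL1β mice, with no drop in the Tet2-KO. Median mitochondrial shares were 3.37 to 4.05% in the vehicle mice and 4.55 to 5.45% in the IL1β mice.

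Short DNA elements of the stress response lie close to the start of many of these genes, and they are shown here because they are the elements bound by the factors of the response and 10 of the members carry one. RefSeq promoters (GRCm38.p6, 250 bases before to 50 after the start) were at hand for 27 of the 32 members. The ER stress element ERSE (CCAAT, any 9 bases, CCACG, either strand), bound by NF-Y together with ATF6 or XBP1, was in 8 of them (29.6%), against 37 of 27025 promoters of all genes (0.137%). Its shorter form ERSE-II (ATTGG, any base, CCACG) was in Dnajb11 and Herpud1, 7.41% of the members against 0.0444% of all genes. The element UPRE (TGACGTGG) and the C/EBP-ATF element (TGATGNAAT) were in no member promoter, against 0.714% and 1.08% of all genes. The members were chosen by name as genes of this response, so these shares are a description and not a test. In the stretches below, written 5′ to 3′ on the strand that reads CCAAT or ATTGG first, capitals mark the fixed bases of the element, which lies 65 to 47 bases before the start in Hspa5 (BiP, chr2:34772013-34772055, plus strand), 107 to 89 and 212 to 194 bases before it in Hsp90b1 (GRP94, chr10:86705521-86705563, plus, and chr10:86705626-86705668, minus), 162 to 144 in Calr (chr8:84847063-84847105, plus), 98 to 80 in Pdia6 (chr12:17266479-17266521, plus), 126 to 108 in Creld2 (chr15:88819508-88819550, minus), and for ERSE-II 7 to 17 bases after the start in Dnajb11 (chr16:22857840-22857874, plus) and 52 to 42 before it in Herpud1 (chr8:94386365-94386399, plus). Canx, Dnajc3 and Syvn1 held the remaining ERSE matches.
Hspa5: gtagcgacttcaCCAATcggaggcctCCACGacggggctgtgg
Hsp90b1, nearer element: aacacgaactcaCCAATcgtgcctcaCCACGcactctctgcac
Hsp90b1, farther element: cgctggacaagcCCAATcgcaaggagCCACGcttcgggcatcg
Calr: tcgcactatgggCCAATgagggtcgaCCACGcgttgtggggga
Pdia6: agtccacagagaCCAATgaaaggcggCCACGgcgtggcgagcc
Creld2: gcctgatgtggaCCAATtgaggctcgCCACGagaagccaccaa
Dnajb11: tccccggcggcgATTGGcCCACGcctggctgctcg
Herpud1: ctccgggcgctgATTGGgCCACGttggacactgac

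Before any treatment effect, the members were set out by cell class in the 8 vehicle mice, WT and Tet2-KO together, as CPM of all UMIs of a mouse in a class. This is a description with no test, since classes were built from the WT vehicle cells described here. Cells of the other groups, IL1β mice included, were placed in these classes by their nearest WT vehicle cells. Levels are compared for 1 gene across classes. Plasma cell-like cells had the highest mean level of 25 of the 32 members, among them the nearly silent Trib3. For 13 of the 25, every plasma cell-like value lay above every value of the next class. The shares of all genes that were highest or apart in plasma cell-like cells were not computed, so these counts have no background. The members together took 2.75 and 2.83% of all UMIs in plasma cell-like cells (means of the Tet2-KO and WT vehicle mice), followed by Eo-like (eosinophil) cells with 1.28 and 1.14% (2 mice each), Baso-like (basophil) cells with 1.20 and 1.24%, and Gran/Mono Prog-like cells with 1.20 and 1.13%.

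Among the factors, Xbp1 had 2056 ± 481 CPM in plasma cell-like cells (SD, n = 8), 171 ± 24.1 in Baso-like cells and 44.0 ± 7.46 in CFU-E-like cells, a 46.8-fold span. Edem1, a lectin that hands misfolded glycoproteins to degradation, had the widest span of the members with no class mean at 0 CPM. It ran from 893 ± 270 in plasma cell-like to 11.0 ± 4.32 in CFU-E-like cells, or 81.4-fold. Hsp90b1, the ER form of Hsp90, had 6369 ± 975 CPM in plasma cell-like cells, 1640 ± 262 in Baso-like and 468 ± 70.9 in CLP-like (common lymphoid progenitor) cells. Hspa5 followed the same order with 2711 ± 530, 1579 ± 292 and 427 ± 89.5 CPM, although its plasma cell-like and Baso-like mice overlapped. The narrowest spans were those of Ssr1 (2.01-fold), a subunit of the translocon-associated protein complex, and Atf4 (2.34-fold), the transcription factor translated when PERK is active.

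The remaining 7 members were highest in other classes, and of these only Calr and P4hb lay wholly above the next class. Plasma cell-like cells came second for Ern1 (51.6 ± 20.0 CPM against 69.7 ± 35.6) and for Ppib (656 ± 81.9 against 667 ± 158). Calr, the lectin chaperone calreticulin, was highest in Eo-like cells with 2548 ± 210 CPM (n = 4), followed by Gran/Mono Prog-like cells with 1989 ± 113 (n = 8). P4hb, a disulfide isomerase, and Ern1 were also highest in Eo-like cells, Pdia3 and Ssr1 in MegP-like (megakaryocyte progenitor) cells, Ppib in Baso-like cells, and Canx, the membrane-bound lectin chaperone, in CFU-E-like cells (602 ± 65.1 against 212 ± 48.2 in Neut-like cells). The lowest class was CFU-E-like for 13 members, MEP-like for 6, Neut-like (neutrophil) for 6, CLP-like for 5 and T/NK-like for 2. Trib3, a pseudokinase induced late in ER stress, was nearly silent, at 4.86 CPM in plasma cell-like cells, 3.00 in HSC-like cells and 0 in T/NK-like cells.

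**Figure D1:**
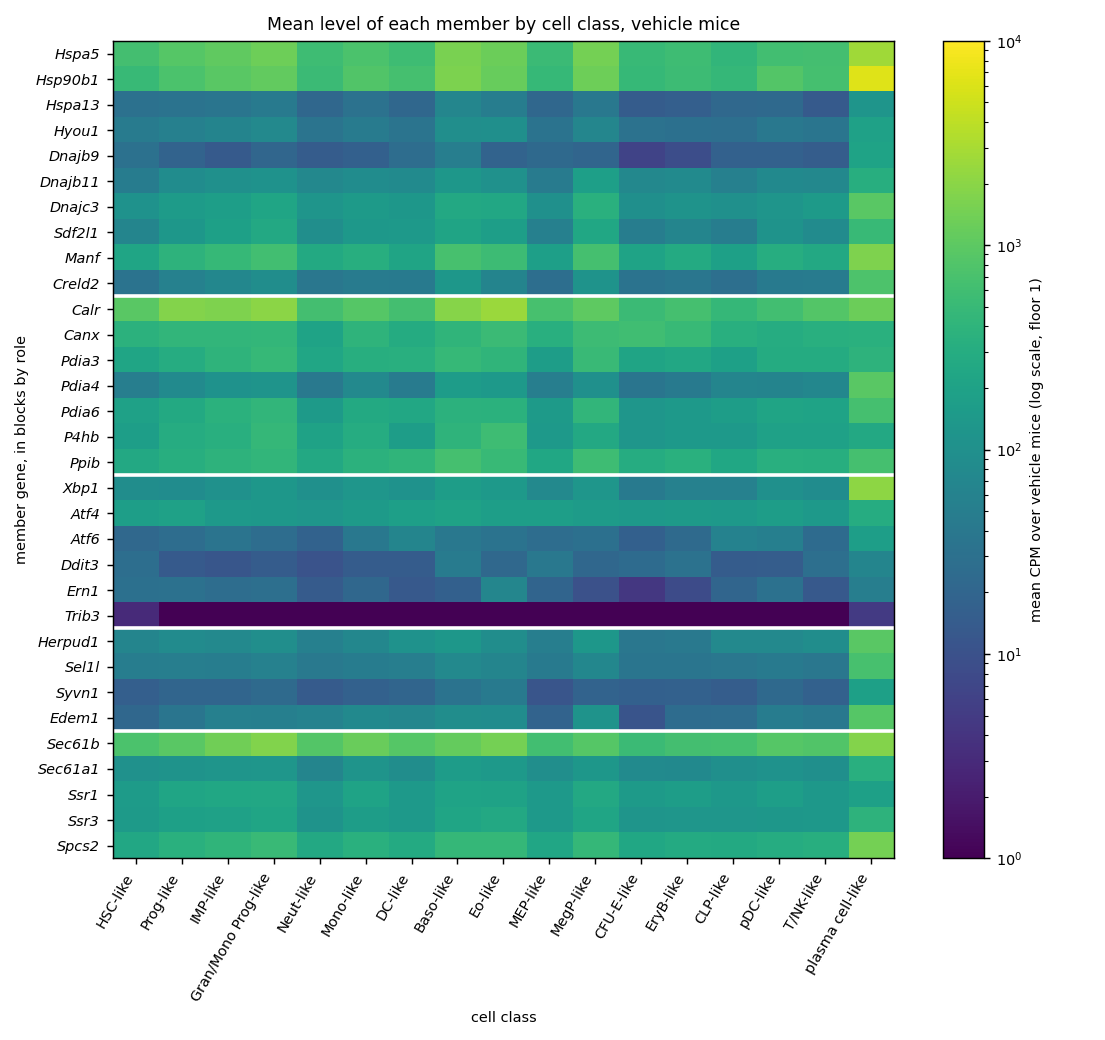
Mean CPM (log colour scale, floor at 1) of the 32 members (rows, grouped by role) in the 17 classes (columns) over the vehicle mice. The plasma cell-like column is the brightest for 25 members, while CFU-E-like, MEP-like, Neut-like and CLP-like columns hold most of the lowest values.

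Under IL1β members were called in both directions in most of the classes with a call. The raised share was above that of all genes in WT and below it in Tet2-KO. Members were tested in 16 classes with enough mice by edgeR's quasi-likelihood test on UMIs summed per mouse and class, with Benjamini-Hochberg adjustment over all genes of the class and a call at an adjusted p under 0.05, and 31 of the 32 (not Trib3) passed the low-count filter in at least 1 class, giving 469 pairs of member and class. A shift in the mix of cells within a class and a change per cell cannot be told apart in these sums. In WT mice IL1β raised 43 pairs (9.17% of the pairs) and lowered 49 (10.4%), where 4.82% and 6.81% of all 114783 pairs of gene and class were called higher and lower. In Tet2-KO mice it raised 22 pairs (4.69%, background 6.26%) and lowered 87 (18.6%, background 8.21%). The median log2 fold change over the pairs was 0.11 in WT and -0.11 in Tet2-KO, where that of all genes was 0.03 and 0.02. Of the lowered pairs 46 were shared (93.9% of those of WT and 52.9% of those of Tet2-KO), of the raised pairs 13 (30.2% and 59.1%), and none was called in opposite directions. How often the calls of all genes were shared was not computed, so these shares have no background. Without the composition factors of the scaling (TMM), the class medians of the log2 fold change of all genes were 0.07 to 0.24 in WT and 0.02 to 0.18 in Tet2-KO. The calls were then 88 higher and 35 lower in WT (18.8% and 7.46%, against 10.5% and 4.14% of all pairs in that fit). In Tet2-KO they were 39 and 72 (8.32% and 15.4%, against 10.8% and 5.34%), so that the raised share there lay below the background. With the 2 pools of a group as its replicates they were 20 and 26 in WT (4.08% and 5.31%, against 1.66% and 2.58% of all pairs) and 5 and 49 in Tet2-KO (1.02% and 10%, against 1.85% and 2.43%). The pool sums also took in the cells with no clear tag, which the sums per mouse left out. Single mice also moved the counts. In WT, 22 pairs were raised without WT vehicle mouse 1 (4.67%, against 2.69% of all pairs), and 31 and 32 were lowered without WT vehicle mouse 3 or WT IL1β mouse 3 (6.58% and 6.79%, against 5.27% and 3.87%). In Tet2-KO, 13 and 11 were raised without its vehicle mouse 3 or 4 (2.78% and 2.34%, against 3.74% and 3.43%).

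By role, the counts are read against the shares of all pairs of gene and class called, 4.82% higher and 6.81% lower in WT and 6.26% and 8.21% in Tet2-KO. The Hsp70 and Hsp90 chaperones and cofactors had 8 raised and 26 lowered of 148 pairs in WT (5.41% and 17.6%, median log2 fold change -0.08) and 0 and 50 in Tet2-KO (33.8% lowered, -0.44). Their raised share was near the background in WT and their lowered share above it in both genotypes. The lectin chaperones and isomerases had 6 raised and 18 lowered of 111 in WT (5.41% and 16.2%, 0.00) and 2 and 27 in Tet2-KO (1.80% and 24.3%, -0.23). Sensors and transcription factors were raised in 8 of 72 pairs in WT (11.1%, 0.32) and in 2 in Tet2-KO (2.78%, under the background, 0.15), and lowered in none. Degradation genes were raised in 11 of 58 pairs in WT (19.0%, 0.41), and in Tet2-KO 9 were raised (15.5%) and 1 lowered (1.72%, 0.18). Their raised shares lay above the background in both. Translocation genes were split, with 10 raised and 5 lowered of 80 in WT (12.5% and 6.25%) and 9 of each in Tet2-KO (11.2%), with a median of 0.07 in both. Their lowered share in WT was near the background.

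**Figure D2:**
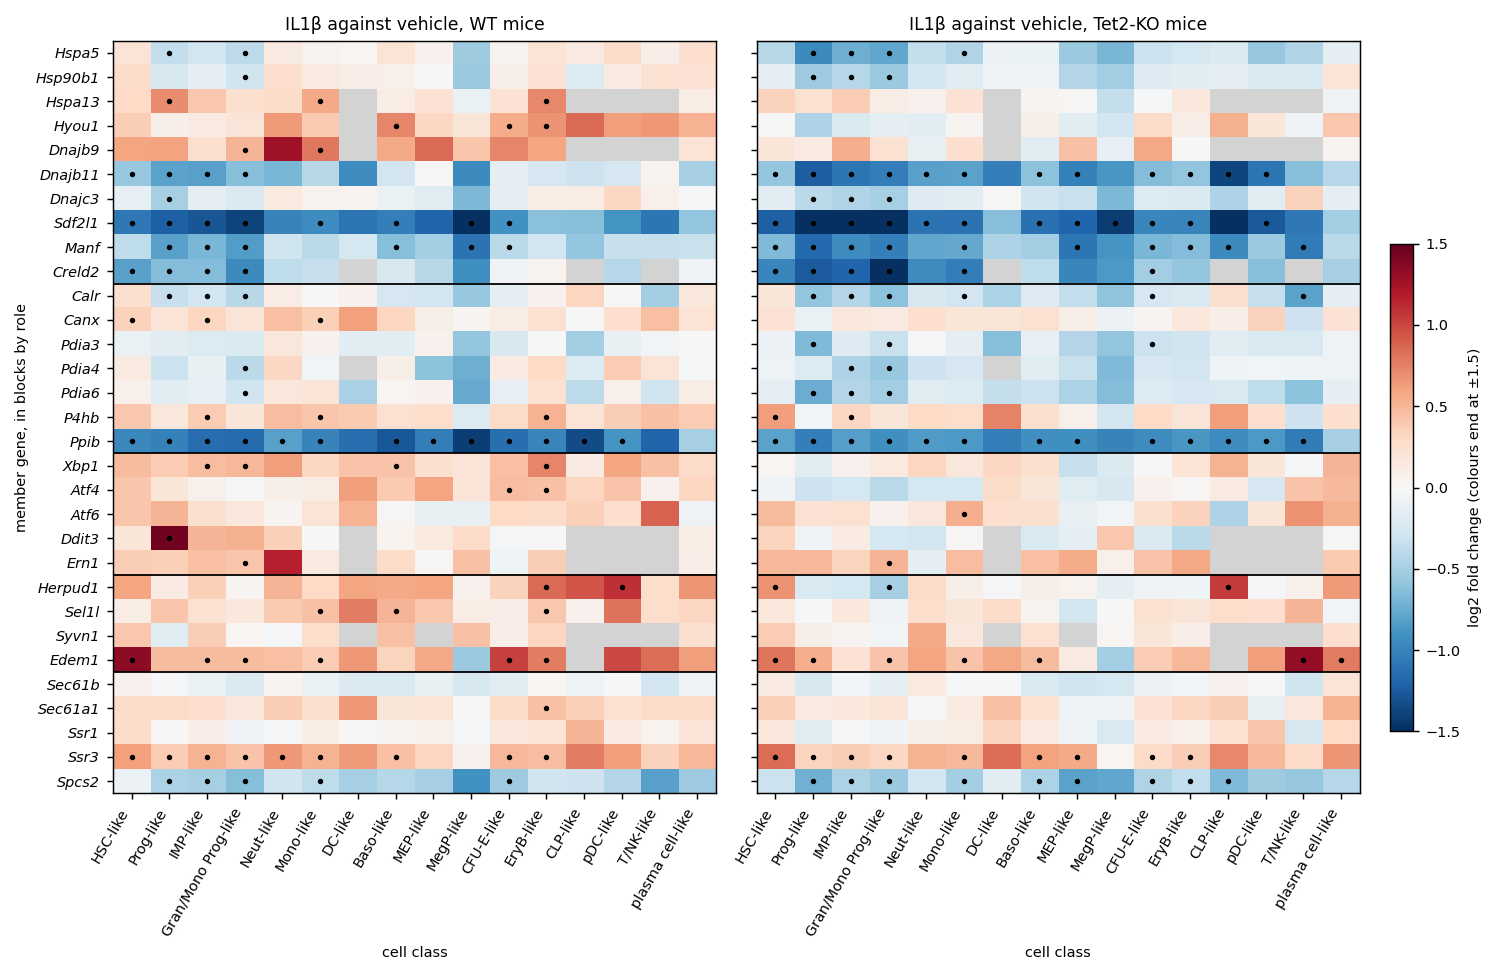
Log2 fold change of IL1β against vehicle in WT (left) and Tet2-KO (right) for the 31 members tested (rows, lines separate the roles) in 16 classes (columns). Colours end at 1.5 in each direction, black dots mark calls at an adjusted p under 0.05, and grey cells did not pass the low-count filter. The rows of Ppib, Sdf2l1, Manf and Dnajb11 are mostly lowered and those of Ssr3 and Edem1 mostly raised in both panels.

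Calls were unevenly spread over the classes. Gran/Mono Prog-like cells had 5 members raised and 11 lowered of 31 in WT, where 12.1% and 15.6% of 10491 genes were called, and 3 raised and 14 lowered in Tet2-KO, where 17.5% and 19.5% were called. IMP-like cells had 5 and 7 in WT (background 7.31% and 11.0%) and 2 and 12 in Tet2-KO (10.4% and 13%). Prog-like cells had 3 and 9 in WT (4.33% and 7.12%) and 2 and 12 in Tet2-KO (10.7% and 13.6%). EryB-like cells went the other way in WT, with 10 raised and 1 lowered (7.97% and 9.96%), but 1 raised and 5 lowered in Tet2-KO (4.44% and 7.59%). DC-like (dendritic) cells had no member called in either genotype (edgeR, 6 and 4 at an unadjusted p under 0.05, 0 by DESeq2), and few genes of any kind were called there (0.123% higher and 0.164% lower of 2436 in WT, 0 in Tet2-KO). Plasma cell-like cells, in which the members are most abundant, had 1 call, in Tet2-KO, where 0.906% and 1.41% of 2980 genes were called (0.302% and 0.772% in WT).

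In Gran/Mono Prog-like cells the member that fell most was Sdf2l1 (chr16:17130138-17132383), which keeps BiP's clients soluble together with Dnajb11. Its CPM, scaled by TMM as in all following values per mouse, was 285, 217, 283 and 197 in the WT vehicle mice and 127, 101, 60.5 and 84.5 in the WT IL1β mice. In Tet2-KO mice it was 260, 239, 384 and 340 with vehicle and 72.5, 72.4, 112 and 121 with IL1β. Every IL1β mouse lay below every vehicle mouse of its genotype, and the log2 fold change was -1.39 ± 0.21 (SE, edgeR, adjusted p = 0.000132) in WT and -1.69 ± 0.21 (adjusted p = 8.86e-06) in Tet2-KO. Ppib (chr9:66060222-66066623), the ER prolyl isomerase cyclophilin B, had 475, 454, 422 and 385 CPM in WT vehicle mice and 242, 242, 152 and 135 in WT IL1β mice. The Tet2-KO values of Ppib were 386, 386, 581 and 533 with vehicle and 230, 187, 283 and 298 with IL1β. The groups again did not overlap, with log2 fold changes of -1.16 ± 0.18 and -0.92 ± 0.18.

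Creld2 and Manf, small secreted or ER-held proteins induced by ER stress, fell alongside. Creld2 had 79.4, 69.8, 113 and 80.4 CPM in WT vehicle mice and 51.2, 41.6, 39.1 and 49.4 in WT IL1β mice, and 110, 88.8, 134 and 109 against 33.0, 29.5, 43.2 and 41.7 in Tet2-KO. Its log2 fold change was -0.96 ± 0.15 in WT and -1.57 ± 0.15 in Tet2-KO (edgeR, adjusted p = 2.30e-06), with no overlap in either. Manf had 671, 589, 697 and 563 against 428, 371, 255 and 363 in WT, and 677, 635, 782 and 712 against 306, 288, 391 and 394 in Tet2-KO, or -0.83 ± 0.13 and -1.03 ± 0.13. Dnajb11, a BiP cofactor, had 120, 87.8, 123 and 91.0 against 76.0, 68.0, 56.0 and 77.8 in WT, and 120, 110, 149 and 124 against 56.4, 54.4, 70.0 and 64.2 in Tet2-KO, or -0.63 ± 0.13 and -1.04 ± 0.12. All of these groups were separate.

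The abundant chaperones had log2 fold changes nearer to 0, and several of their calls depended on the processing. Hspa5 (BiP, chr2:34771970-34777547) had 1269, 1109, 1618 and 1147 CPM in WT vehicle mice and 1048, 940, 841 and 1089 in WT IL1β mice, and 1594, 1350, 1682 and 1467 against 821, 937, 882 and 903 in Tet2-KO. The log2 fold change was -0.40 ± 0.11 in WT (edgeR, adjusted p = 0.0110), which lost its call without WT vehicle mouse 3 (-0.26), and -0.78 ± 0.11 in Tet2-KO (adjusted p = 3.11e-05). Calr had 2117, 1951, 2102 and 2024 against 1841, 1681, 1265 and 1332 in WT, and 2095, 1969, 2319 and 2385 against 1387, 1342, 1427 and 1578 in Tet2-KO, with -0.42 ± 0.10 and -0.61 ± 0.10 and no overlap. Hsp90b1 had 1032, 1063, 1360 and 1099 against 905, 903, 868 and 1025 in WT, and 1233, 1082, 1342 and 1057 against 796, 759, 838 and 824 in Tet2-KO. It changed by -0.30 ± 0.10 and -0.55 ± 0.10, and the WT call was lost without WT IL1β mouse 2 or 3 or WT vehicle mouse 3. Pdia6, a disulfide isomerase that also binds the sensors, had 457, 423, 449 and 408 against 384, 353, 333 and 340 in WT and 451, 431, 539 and 480 against 315, 273, 354 and 382 in Tet2-KO. Its change was -0.30 ± 0.10 and -0.52 ± 0.10, and the WT call was lost without any 1 of 5 mice (WT vehicle 1 or 3, WT IL1β 2, 3 or 4). Spcs2, a signal peptidase subunit, fell by 0.64 and 0.56 on the log2 scale and Pdia4 by 0.40 and 0.57 (WT without vehicle mouse 3 not called), while Dnajc3 (-0.50) and Pdia3 (-0.33) were called in Tet2-KO alone and stood at -0.22 each in WT. Pdia3 lost that call without Tet2-KO vehicle mouse 3 or IL1β mouse 1 or 2. Without TMM factors the WT calls of Hspa5, Hsp90b1, Pdia6 and Pdia4 and the Tet2-KO call of Pdia3 were lost. With pools as replicates these were lost as well, and with them the calls of Calr in WT, Pdia6 in Tet2-KO and Spcs2 in both.

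In the same cells 5 of 31 members were raised in WT and 3 in Tet2-KO, where 12.1% and 17.5% of all genes were, so that the count is near that share in WT and under it in Tet2-KO. Ssr3 (chr3:65379655-65392623), the γ subunit of the translocon-associated protein complex, had 219, 223, 250 and 230 CPM in WT vehicle mice and 309, 309, 320 and 308 in WT IL1β mice, and 284, 265, 237 and 239 against 334, 301, 317 and 317 in Tet2-KO. It rose by 0.43 ± 0.08 and 0.31 ± 0.08 on the log2 scale, without overlap. Edem1 had 57.3, 51.7, 63.7 and 55.8 against 84.2, 74.7, 81.2 and 80.1 in WT, and 65.5, 61.9, 58.7 and 45.4 against 90.4, 64.3, 73.5 and 84.6 in Tet2-KO. The WT mice were separate and the Tet2-KO mice overlapped, with log2 fold changes of 0.47 and 0.43. Ern1, which encodes the sensor IRE1α, had 24.3, 40.9, 32.2 and 29.1 against 33.3, 37.0, 47.1 and 46.3 in WT, which overlapped, and 32, 28.8, 30.9 and 28.8 against 43.6, 45.5, 41.7 and 42 in Tet2-KO, which did not. It rose by 0.41 and 0.51, and the WT call was lost without WT vehicle mouse 1 or 4 or WT IL1β mouse 3. With pools as replicates the calls of Ssr3 in both genotypes, Edem1 in Tet2-KO and Ern1 in WT were lost.

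Xbp1 (chr11:5520659-5525893), the factor that IRE1α activates by splicing, had 143, 93.8, 148 and 127 CPM in WT vehicle mice and 184, 180, 174 and 201 in WT IL1β mice, with no overlap and a log2 fold change of 0.50 ± 0.13 (edgeR, adjusted p = 0.0061), not called with pools as replicates. In Tet2-KO it had 195, 165, 133 and 126 with vehicle and 184, 166, 164 and 172 with IL1β, which overlapped (0.14 ± 0.12, edgeR, adjusted p = 0.38). The difference between the genotypes did not pass its own test (-0.35 ± 0.17, edgeR interaction term, adjusted p = 1.00). Spliced and unspliced Xbp1 cannot be separated by 3′ counts. Dnajb9, a J-domain cofactor of BiP, was raised by 0.52 in WT (edgeR, adjusted p = 0.045), a call lost without any 1 of WT vehicle mice 2 or 4 or WT IL1β mice 2, 3 or 4. It was also lost with either replicate block, with pools, at the finer clustering (resolution 2) and among cells with 3 to 6% mitochondrial UMIs.

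The stress factors Atf4 and Ddit3 were not called in these cells. Atf4 had 169, 97.4, 144 and 121 CPM in WT vehicle and 172, 120, 105 and 144 in WT IL1β mice (log2 fold change -0.00), and 176, 197, 124 and 143 against 119, 170, 102 and 95.6 in Tet2-KO (-0.40, edgeR, adjusted p = 0.089). Ddit3 (CHOP) had 13.2, 15.6, 16.3 and 8.21 against 23.7, 15.6, 13.1 and 21.4 in WT (0.53, edgeR, adjusted p = 0.095), and 17.3, 14.1, 18.0 and 20.6 against 15.5, 19.4, 12.7 and 11.8 in Tet2-KO (-0.26). Both genes overlapped between the groups in each genotype. Herpud1, which scaffolds the degradation complex, had 103, 81.8, 123 and 59.6 against 97.9, 103, 79.3 and 104 in WT (0.04) and 98.8, 95.1, 143 and 118 against 84.1, 79.9, 78.9 and 79.3 in Tet2-KO. The Tet2-KO fall was called (-0.50 ± 0.16, edgeR, adjusted p = 0.015), but not without Tet2-KO vehicle mouse 3 (-0.36) or without TMM factors.

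**Figure D3:**
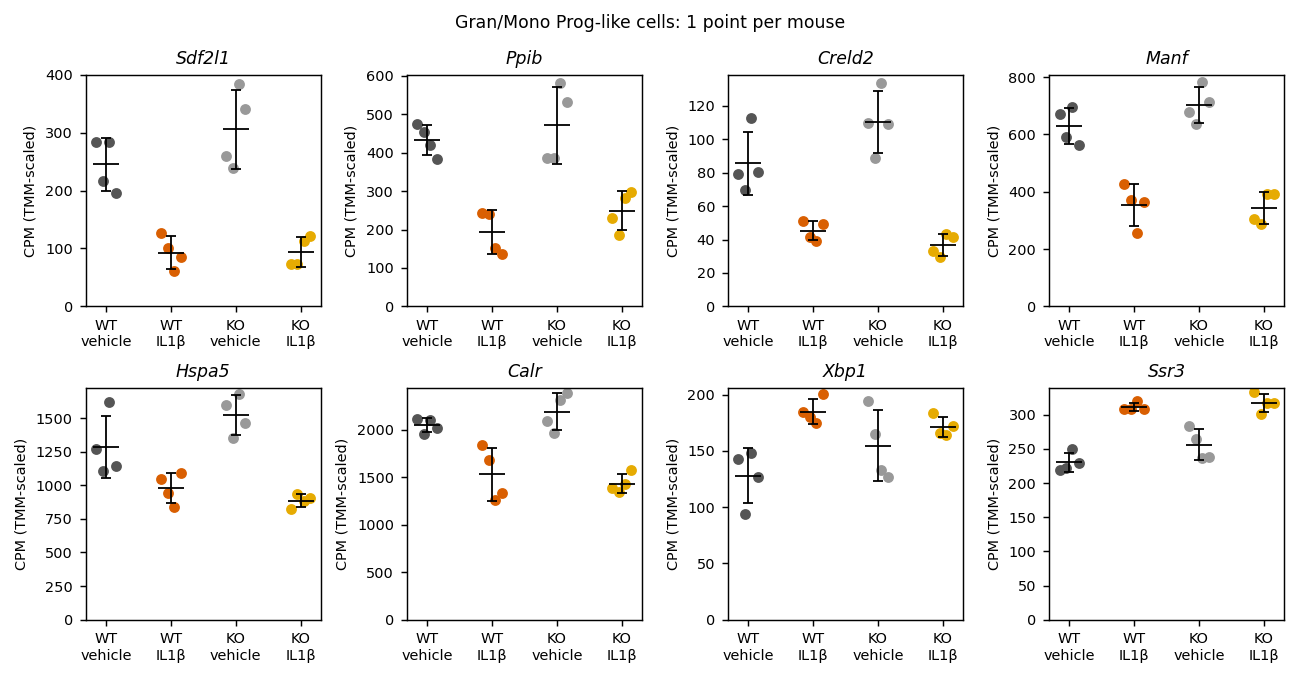
TMM-scaled CPM of 8 members in Gran/Mono Prog-like cells, 1 point per mouse, with bars for the mean ± SD of the 4 mice of a group and axes that start at 0. Sdf2l1, Ppib, Creld2, Manf and Calr lie lower in all IL1β mice than in the vehicle mice of the same genotype, while Ssr3 lies higher.

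HSC-like cells showed part of this pattern. In WT 3 members were raised and 4 lowered (background 6.00% and 5.92% of 9471 genes), and in Tet2-KO 4 were raised and 5 lowered (8.09% and 9.09%). HSC-like cells numbered 36 to 675 per mouse, so that low CPM values in the mice with fewest cells rest on few UMIs. Ppib had 315, 269, 244 and 245 CPM in WT vehicle mice and 150, 159, 95.9 and 149 in WT IL1β mice, and 185, 238, 303 and 309 against 144, 127, 164 and 164 in Tet2-KO. The groups did not overlap, with log2 fold changes of -0.97 ± 0.17 and -0.80 ± 0.16. Sdf2l1 had 76.5, 55.7, 79.8 and 50.9 against 31.5, 30.3, 23.8 and 59.1 in WT, and 56.9, 58.7, 84.2 and 77.5 against 47.3, 28.3, 27.0 and 28.9 in Tet2-KO. One WT IL1β mouse lay among the vehicle mice, and the changes were -1.07 ± 0.23 (edgeR, adjusted p = 0.0033) and -1.22 ± 0.20 (adjusted p = 0.0002).

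Creld2 had 44.5, 18.6, 35.5 and 29.4 CPM against 19.3, 23.2, 13.8 and 31.0 in WT HSC-like cells and 43.3, 34, 45.3 and 29.96 against 28.4, 15.8, 24.2 and 16.9 in Tet2-KO. It fell by 0.97 in Tet2-KO without overlap, and by 0.81 in WT with overlap, where the call was lost without any 1 of WT vehicle mice 1, 3 or 4 or WT IL1β mice 1 or 3. It was also lost by DESeq2, without TMM factors, at resolution 2, with a marker gate on the cells and with a trend in transcript length and GC content removed from the counts. Manf had 226, 232, 236 and 193 against 174, 196, 140 and 169 in WT (-0.38, edgeR, adjusted p = 0.065) and 234, 201, 254 and 251 against 191, 129, 152 and 145 in Tet2-KO, where it fell by 0.66 ± 0.13. Dnajb11 changed by -0.57 and -0.58 with adjusted p = 0.047 and 0.014 by edgeR. The WT call was lost without any 1 of 10 mice and in most alternatives, and that of Tet2-KO without IL1β mouse 2 or 3 or vehicle mouse 3, by DESeq2 and with the gate.

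Among the raised members, Edem1 (chr6:108828641-108859356) had 14.2, 9.29, 23.9 and 19.9 CPM in WT vehicle HSC-like cells and 46.7, 53.5, 47.6 and 61.9 with IL1β, and 29.1, 37.1, 21.5 and 20.2 against 52.9, 42.7, 47.7 and 33.8 in Tet2-KO. The WT groups did not overlap (1.34 ± 0.22, edgeR, adjusted p = 0.00036) and the Tet2-KO groups did (0.80 ± 0.19, adjusted p = 0.0045). Ssr3 had 173, 167, 165 and 155 against 272, 225, 269 and 225 in WT and 167, 151, 142 and 145 against 355, 258, 240 and 239 in Tet2-KO, separate in both, with 0.61 ± 0.13 and 0.84 ± 0.12. P4hb had 189, 186, 207 and 174 against 296, 239, 246 and 211 in WT (0.41, edgeR, adjusted p = 0.086) and 186, 201, 129 and 163 against 348, 255, 216 and 219 in Tet2-KO (0.62 ± 0.15, adjusted p = 0.0045). Canx had 367, 418, 376 and 399 against 447, 516, 457 and 549 in WT (0.34 ± 0.11, edgeR, adjusted p = 0.034) and 395, 395, 339 and 358 against 461, 435, 420 and 415 in Tet2-KO (0.22, adjusted p = 0.13). The Canx call was lost without any 1 of 5 WT mice (vehicle 1, 3 or 4, IL1β 2 or 4), without the low-count filter, with pools and at resolution 2, among others. At resolution 2 the calls of Ssr3 in WT and P4hb in Tet2-KO were lost too (P4hb also with pools), and with the gate that of Edem1 in WT. Herpud1 had 62.3, 46.5, 85.6 and 69.9 against 78.3, 155, 99.0 and 132 in WT (0.59 ± 0.20, edgeR, adjusted p = 0.051) and 73.1, 52.5, 81.9 and 63.8 against 100.2, 95.3, 142 and 112 in Tet2-KO (0.67 ± 0.18, adjusted p = 0.010). Tet2-KO Herpud1 was separate, and its call was lost without IL1β mouse 3 or vehicle mouse 4.

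The remaining members followed by rule in HSC-like cells were not called. Hspa5 had 589, 492, 693 and 457 CPM in WT vehicle mice and 590, 672, 484 and 889 in WT IL1β mice (log2 fold change 0.21, edgeR, adjusted p = 0.44), and 732, 732, 777 and 710 against 702, 561, 491 and 460 in Tet2-KO (-0.42 ± 0.15, adjusted p = 0.059). All 4 Tet2-KO vehicle mice lay above all 4 Tet2-KO IL1β mice, whereas the WT mice overlapped, and the interaction was -0.63 ± 0.22 with an unadjusted p of 0.0083 and an adjusted p of 1.00 by edgeR. Hsp90b1 had 488, 362, 611 and 512 against 524, 585, 583 and 785 in WT (0.28) and 529, 522, 586 and 523 against 596, 454, 494 and 415 in Tet2-KO (-0.15). Calr had 1075, 864, 1015 and 878 against 1134, 1297, 1008 and 1117 in WT (0.24) and 988, 920, 968 and 996 against 1363, 1066, 1100 and 886 in Tet2-KO (0.18). Hsp90b1 and Calr overlapped between vehicle and IL1β in both genotypes. Pdia6 had 198, 139, 236 and 191 against 175, 230, 206 and 262 in WT (0.08) and 204, 198, 203 and 208 against 244, 156, 190 and 167 in Tet2-KO (-0.14).

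Xbp1 in HSC-like cells had 81.9, 102, 87.7 and 63.9 CPM against 99.3, 116, 99.0 and 143 in WT (log2 fold change 0.47, edgeR, adjusted p = 0.069) and 102, 105, 113 and 84.7 against 138, 105, 87.5 and 91.6 in Tet2-KO (0.03, adjusted p = 0.99). Atf4 had 208, 74.3, 141 and 148 against 261, 193, 186 and 166 in WT (0.42) and 316, 222, 141 and 179 against 199, 304, 169 and 141 in Tet2-KO (-0.05). Ddit3 had 33.8, 46.5, 27.6 and 19.0 against 48.5, 23.2, 22.3 and 8.44 in WT (0.18) and 31.2, 18.5, 25.6 and 26.1 against 30.3, 34.2, 37.0 and 31.3 in Tet2-KO (0.34). The fit weighs mice by their UMIs, and the plain mean of Ddit3 over the WT mice was lower, not higher, with IL1β. None of these 3 factors was called, and the vehicle and IL1β mice overlapped in each comparison.

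**Figure D4:**
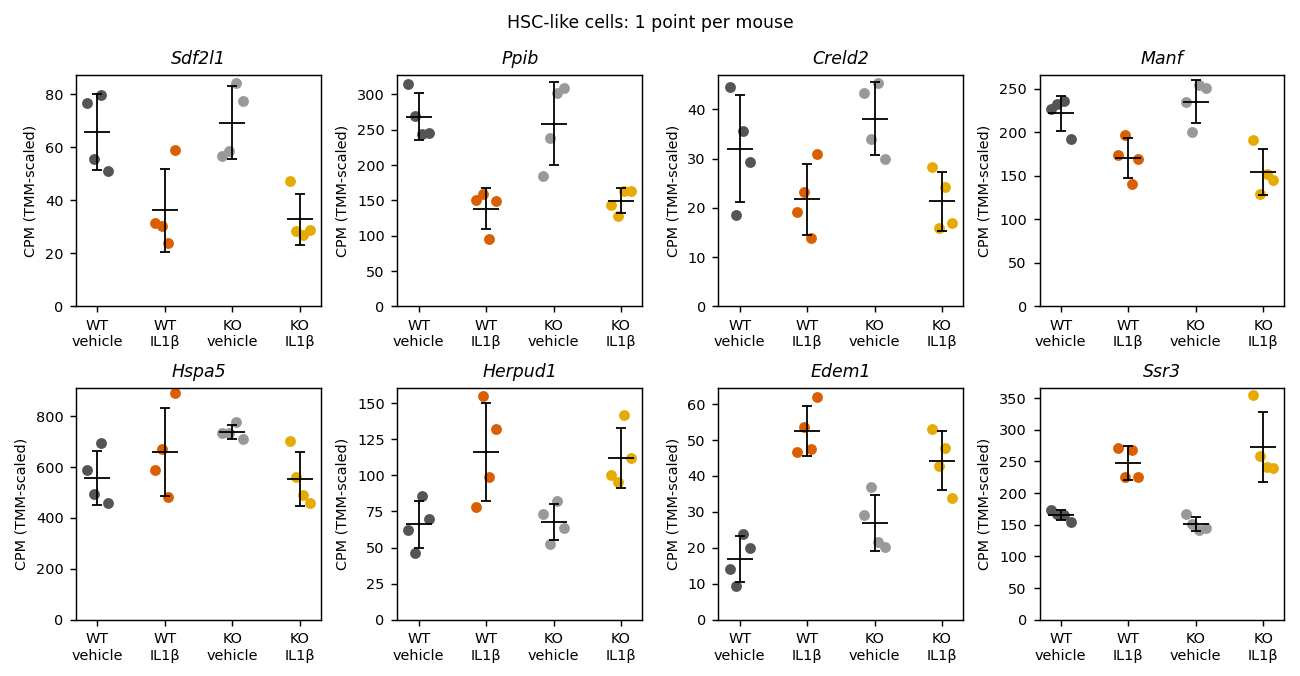
TMM-scaled CPM of 8 members in HSC-like cells, 1 point per mouse, with bars for the mean ± SD of the 4 mice of a group and axes that start at 0. Ppib lies lower and Ssr3 higher in all IL1β mice than in the vehicle mice of the same genotype, and Hspa5 is lower with IL1β in the Tet2-KO mice while the WT mice overlap.

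Across the 16 classes Ppib was the most widely lowered member, called in 13 classes in WT (median log2 fold change -1.09) and in 13 in Tet2-KO (-0.92), and its change was below 0 in all 16 classes in both. The called values ran from -1.42 in MegP-like to -0.81 in Neut-like cells in WT. Sdf2l1 was called lower in 8 classes in WT (median -1.05) and 12 in Tet2-KO (-1.15), most deeply in Prog-like cells of Tet2-KO mice, which had 114 to 173 CPM with vehicle and 20.9 to 59.3 with IL1β (-1.94 ± 0.20, edgeR, adjusted p = 3.18e-07). In MegP-like cells Sdf2l1 went from 170 to 404 down to 61.9 to 104 in WT (-1.49), and from 205 to 327 down to 55.0 to 138 in Tet2-KO (-1.43). Manf was lowered in 6 and 10 classes, and both Manf and Sdf2l1 were below 0 in all 16 classes of each genotype. The classes come from the same mice and libraries, so they are not separate observations, here or in the counts of classes below. With pools as replicates Ppib was called in 9 classes in WT and 5 in Tet2-KO, Sdf2l1 in 6 and 8 (MegP-like cells in neither) and Manf in 4 and 7.

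Dnajb11 was called lower in 4 classes in WT (Gran/Mono Prog-like, HSC-like, IMP-like and Prog-like) and in 12 in Tet2-KO, where CLP-like cells changed most (-1.37, not called by DESeq2). In IMP-like cells Dnajb11 had 90.8 to 111 CPM in WT vehicle mice and 49.7 to 60.7 with IL1β (-0.81), and 97.0 to 146 against 42 to 60.4 in Tet2-KO (-1.09). Creld2 was lowered in 4 of 13 classes in WT and 6 of 13 in Tet2-KO. Hspa5 was lowered in 2 classes in WT, where its change was below 0 in 4 of 16 classes (median 0.08), and in 4 in Tet2-KO, where it was below 0 in all 16 (median -0.44). Without TMM factors it was raised in 1 class and lowered in none in WT, and lowered in 4 in Tet2-KO. Hspa5 had 730 to 941 CPM against 553 to 826 in WT Prog-like cells (-0.37) and 889 to 1107 against 454 to 582 in Tet2-KO Prog-like cells (-0.95). The WT call of Hspa5 in Prog-like cells was lost in 7 of the fits that left out 1 mouse, without TMM factors and with pools, among others. Hsp90b1 was lowered in 1 and 3 classes, Dnajc3, the PERK inhibitor P58IPK, in 1 and 3, Calr in 3 and 6, Pdia6 in 1 and 3, Pdia4 in 1 and 2 of 15, and Pdia3, which works with the lectin chaperones, in 0 and 3. The WT calls of Hspa5, Hsp90b1, Dnajc3, Calr, Pdia6 and Pdia4 were all lost with pools as replicates. In Tet2-KO Hspa5 was then lowered in 3 classes, Hsp90b1, Dnajc3 and Calr in 2 each, and Pdia6, Pdia4 and Pdia3 in 1 each. Pools also left Dnajb11 lowered in 3 and 9 classes and Creld2 in 2 and 5.

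Other chaperones rose where called. Hyou1, the nucleotide exchange factor GRP170, was raised in Baso-like (0.73), CFU-E-like (0.56) and EryB-like cells (0.68) in WT and in none in Tet2-KO. Hspa13, a microsomal Hsp70, was raised in 3 of 12 classes in WT (0.56 to 0.72), and Dnajb9 in 2 of 12, with 8.72 to 24.4 CPM against 21.6 to 26.3 in Mono-like cells (0.79). With pools as replicates Hyou1 was called in 2 classes and Hspa13 and Dnajb9 in 1 each. P4hb was raised in 3 classes in WT and 2 in Tet2-KO, and Canx in 3 and 0, against 1 and 0 for P4hb and none for Canx with pools.

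The sensors and factors were raised mostly in WT. Xbp1 was raised in Baso-like (0.43), EryB-like (0.74), Gran/Mono Prog-like (0.50) and IMP-like cells (0.46) in WT and in no class in Tet2-KO (1 by DESeq2), with 53.0 to 68.9 CPM against 81.7 to 126 in WT EryB-like cells and 64.7 to 115 against 139 to 148 in WT IMP-like cells. Its log2 fold change was above 0 in 16 of 16 classes in WT and in 11 in Tet2-KO, and with pools it was called in 2 classes in WT. Atf4 was raised in WT CFU-E-like cells (132 to 145 against 157 to 218 CPM, 0.46) and EryB-like cells (137 to 150 against 177 to 203, 0.43). Ddit3 was raised in WT Prog-like cells (0 to 16.3 against 5.19 to 41.3 CPM, 1.45 ± 0.41, edgeR, adjusted p = 0.018), where the groups overlapped and the call was lost without WT vehicle mouse 3 or 4 or WT IL1β mouse 1 (down to 0.80), by DESeq2 and at resolution 2. Atf6 was raised in Tet2-KO Mono-like cells (33.0 to 39.7 against 50.0 to 57.1 CPM, 0.55), not with pools. No difference between genotypes in these effects passed a test.

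Of the degradation genes, Edem1 was raised in 6 of 15 classes in WT and 7 in Tet2-KO, including CFU-E-like cells of WT mice (3.94 to 15.6 against 19.1 to 35.5 CPM, 1.03), T/NK-like cells of Tet2-KO mice (21.9 to 61.3 against 85.2 to 97.0, 1.32) and plasma cell-like cells of Tet2-KO mice (575 to 1250 against 1200 to 1459, 0.78, edgeR, adjusted p = 0.024), the one call in that class under IL1β. Plasma cell markers went from 16.0 to 21.5 up to 67.9 to 1646 CPM in WT CFU-E-like cells without overlap, and had 62.4 to 2344 and 68.1 to 508 in Tet2-KO T/NK-like cells. Their part in the Edem1 values was not tested. With pools as replicates Edem1 was called in 4 classes in WT and 1 in Tet2-KO, and the calls in T/NK-like and plasma cell-like cells were lost. Herpud1 was raised in WT EryB-like cells (34 to 44.9 against 52.2 to 96.7 CPM, 0.85), WT pDC-like (plasmacytoid dendritic) cells (43.0 to 105 against 134 to 284, 1.10) and Tet2-KO CLP-like cells (72.9 to 130 against 123 to 291, 1.05). The last was lost without Tet2-KO IL1β mouse 1 or vehicle mouse 3 or 4, and that in pDC-like cells at resolution 2. Sel1l, which holds the ubiquitin ligase HRD1 in its complex, was raised in Baso-like (0.51), EryB-like (0.40) and Mono-like cells (0.44) of WT mice, and in none of them with pools as replicates. Syvn1, the ligase itself, was called in none of its 11 classes (median 0.27 in WT and 0.16 in Tet2-KO).

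Subunits of the translocation machinery parted. Ssr3 was raised in 9 of 16 classes in both genotypes (medians 0.50 and 0.49), and its change was above 0 in all 16. Spcs2 was lowered in 5 and 9 classes (medians -0.49 in both). With pools as replicates Ssr3 was called in 3 and 1 classes and Spcs2 in 2 and 2. Sec61b and Sec61a1, channel subunits, had no call and 1 call (Sec61a1 in WT EryB-like cells, 0.44), and Ssr1 had none. The other 2 subunits of the translocon-associated protein complex, taken from a list of further translocation genes, fell. Ssr4 was lowered in 11 classes in WT (median -0.79) and 9 in Tet2-KO (-0.68), and Ssr2 in 7 and 8 (-0.49 and -0.58). In Gran/Mono Prog-like cells the group means of Ssr4 were 900 and 461 CPM (WT vehicle and IL1β) and 942 and 574 (Tet2-KO), and those of Ssr2 were 326 and 207, and 360 and 211. The 4 subunits of 1 complex thus had Ssr3 raised, Ssr1 uncalled, and Ssr2 and Ssr4 lowered.

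Transcript length moved with the IL1β comparison. Over all genes of a class, the median log2 fold change of the shortest quintile by transcript length was -0.23 to -0.10 over the classes in WT and -0.21 to -0.09 in Tet2-KO, and that of the longest quintile was 0.08 to 0.20 and 0.10 to 0.23. In Gran/Mono Prog-like cells the quintile medians in WT ran from -0.17 (median length 734 bases) through -0.12, 0.05 and 0.12 to 0.15 (4775 bases). Many lowered members are short, such as Manf (545 bases), Spcs2 (881), Ppib (892) and Sdf2l1 (1108), and Ssr2 (569) and Ssr4 (782.5) are shorter than Ssr3 (2213), while Edem1 is long (5817). By the same lengths Hspa5 (3142.5 bases) is long and was lowered, and Xbp1 (1099) and Sec61b (430) are short and were not. The lengths are medians over the annotated protein-coding transcripts of a member and can differ from that of the RNA expressed here. With a smooth trend in length and GC content taken out of each mouse's counts, chosen after seeing the data, 32 pairs were higher and 42 lower in WT (27 and 38 of them among the 43 and 49 calls above), or 6.82% and 8.96% against 4.16% and 5.05% of all pairs in that fit. In Tet2-KO 15 were higher and 87 lower (12 and 77 among the calls above), or 3.20% and 18.6% against 5.28% and 6.22%, the raised share being below the background. Ppib was then lowered in 10 classes in each genotype, Sdf2l1 in 8 and 10, and Hspa5 in 3 and 8. Manf went from 6 to 3 in WT (10 in Tet2-KO in both), Creld2 from 4 to 1 in WT and 6 to 5 in Tet2-KO, and Spcs2 from 5 to 3 and 9 to 6. Xbp1 was raised in 7 classes in WT and Ssr3 in 6 and 5, whereas Edem1 was raised in 2 and 1 and Canx, Sel1l and Hspa13 in none. The part of length in these results was measured only in this way.

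**Figure D5:**
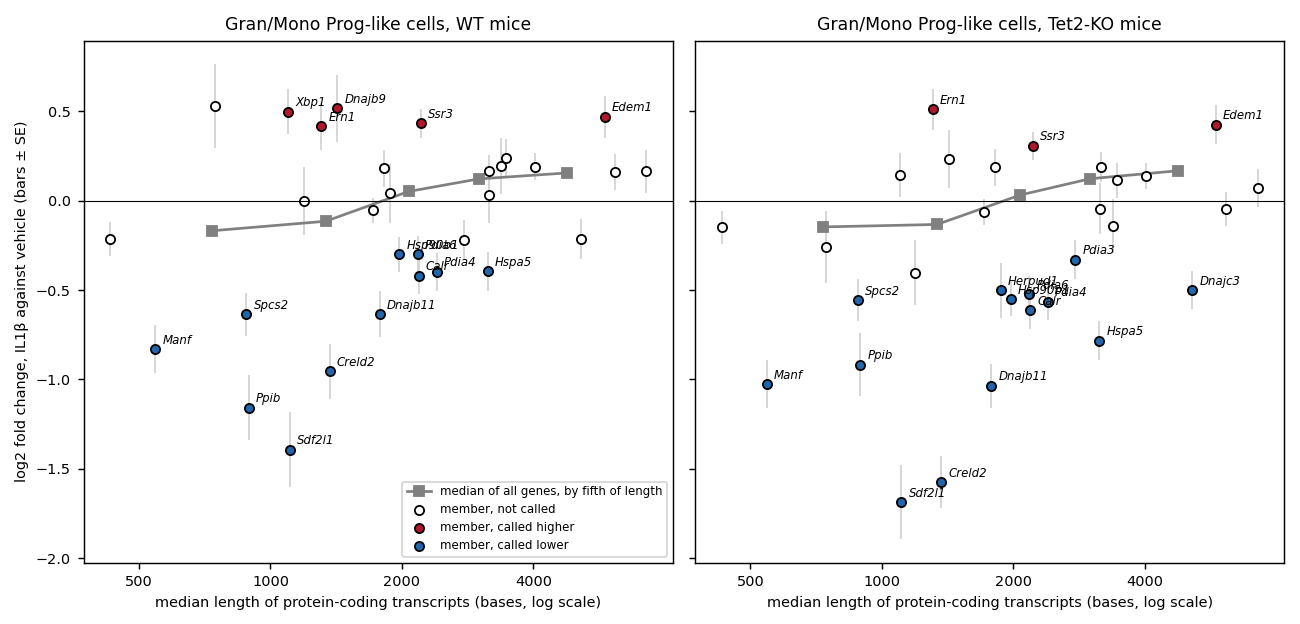
Log2 fold change (± SE) of IL1β against vehicle in Gran/Mono Prog-like cells for the members, plotted against the median length of their protein-coding transcripts (bases, log axis), in WT and Tet2-KO. Grey squares give the median of all genes in each quintile of length, which runs from -0.17 to 0.15 in WT. Ppib, Sdf2l1, Creld2 and Hspa5 lie below the squares in both genotypes, and Xbp1 lies above them in WT.

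Mitochondrial UMIs and genes of other cells also moved with IL1β. The median mitochondrial share of Gran/Mono Prog-like cells, per mouse, was 3.40 to 4.51% in WT vehicle mice and 5.03 to 5.66% in WT IL1β mice, and 3.24 to 4.14% against 4.64 to 5.78% in Tet2-KO. Among cells with 3 to 6% mitochondrial UMIs alone, chosen after seeing the data, 43 pairs were higher and 46 lower in WT (9.49% and 10.2%, against 4.55% and 6.44% of all pairs) and 17 and 79 in Tet2-KO (3.75% and 17.4%, against 5.25% and 7.13%). Plasma cell markers (7 of the 13 listed were in the count tables) summed to 16.5 to 25.4 CPM in Gran/Mono Prog-like cells of WT vehicle mice with Prdm1 at 0, 91.6 to 586 with IL1β, 10.8 to 180 in Tet2-KO vehicle mice and 27.9 to 224 in Tet2-KO IL1β mice. In HSC-like cells they summed to 28.0 to 248, 94.0 to 2506, 31.9 to 189 and 122 to 993 CPM in the same order. Elsewhere the vehicle and IL1β mice were also separate in CFU-E-like and T/NK-like cells of WT mice (45.1 to 93.6 against 191 to 2284 CPM in the latter) and in MegP-like cells of Tet2-KO mice (2.19 to 19.7 against 23.2 to 32.5). Macrophage markers (10 of 10 in the tables) went from 38.7 to 68.6 up to 113 to 168 CPM in Gran/Mono Prog-like cells of WT mice and from 21.6 to 63.8 up to 101 to 118 in Tet2-KO. In Neut-like cells they went from 108 to 150 up to 198 to 400 CPM in WT, and overlapped in Tet2-KO (89.0 to 215 and 208 to 355). EryB markers (9 of 9) went from 48.0 to 109 down to 23.0 to 46.7 CPM in Gran/Mono Prog-like cells of Tet2-KO mice, without overlap, and had 58.3 to 81.4 and 51.8 to 66.9 in WT. In Tet2-KO they were also separate in IMP-like (55.6 to 95.4 against 20.1 to 54.1 CPM) and Mono-like cells (85.5 to 228 against 19.3 to 54.5). The same held in DC-like cells of Tet2-KO mice (119 to 246 against 39.8 to 61.9 CPM). Neutrophil and B cell markers overlapped between vehicle and IL1β in Gran/Mono Prog-like cells, and in HSC-like cells so did the macrophage, EryB, neutrophil and B cell markers. The part of these cells' RNA in the results was not tested.

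Members with a promoter element were set beside the rest by counts. The 10 members with ERSE or ERSE-II had 5 raised and 16 lowered of 152 pairs in WT (3.29% and 10.5%, median log2 fold change 0.05), where 4.82% and 6.81% of all pairs of gene and class were called, and 2 and 38 in Tet2-KO (1.32% and 25%, -0.25), where 6.26% and 8.21% were. The 17 members whose promoter held neither had 31 and 27 of 242 in WT (12.8% and 11.2%, 0.13) and 19 and 39 in Tet2-KO (7.85% and 16.1%, -0.04). The 5 members without a promoter sequence had 7 and 6 of 75 in WT (9.33% and 8%) and 1 and 10 in Tet2-KO (1.33% and 13.3%). The lowered share was thus above the background with and without an element. Of the widely lowered members Ppib, Sdf2l1 and Spcs2 held neither element while Creld2 and Dnajb11 held one.

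Further genes of the pathway were taken from lists made beside the members and are read against the same shares of all pairs (4.82% higher and 6.81% lower in WT, 6.26% and 8.21% in Tet2-KO). Other ER folding genes had 16 raised and 26 lowered of 232 pairs in WT (6.90% and 11.2%) and 10 and 41 in Tet2-KO (4.31% and 17.7%). In Gran/Mono Prog-like cells Fkbp11 (-0.71 in WT, -1.11 in Tet2-KO), a prolyl isomerase of secretory cells, and Prdx4 (-1.01 in Tet2-KO), an ER peroxidase, fell, while in HSC-like cells Ero1l, the oxidase that recharges disulfide isomerases (0.88 and 0.80), and Dnajc10, a reductase (0.48 and 0.71), rose. Mzb1, itself a plasma cell marker, was raised in WT Gran/Mono Prog-like cells (3.80 ± 1.13). Other translocation and glycosylation genes had 13 and 58 of 313 in WT (4.15% and 18.5%) and 4 and 59 in Tet2-KO (1.28% and 18.8%), with Krtcap2, a subunit of the oligosaccharyltransferase, at -0.67 in WT Gran/Mono Prog-like cells and Sec11a, a signal peptidase subunit, at -0.66 in those of Tet2-KO. Other degradation genes had 7 and 4 of 188 in WT (3.72% and 2.13%) and 11 and 14 in Tet2-KO (5.85% and 7.45%), each share under the background, with Ubxn4, an adaptor of the degradation ATPase VCP, lowered in Gran/Mono Prog-like cells (-0.45 and -0.44).

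Other sensors and regulators were raised in 4 of 121 pairs in WT (3.31%, under the background) and 10 in Tet2-KO (8.26%, near it) and lowered in none, among them Ppp1r15a (GADD34, 0.97 in WT HSC-like cells), a phosphatase subunit that ends the translation block, and Ppp1r15b (0.29 and 0.24) in Gran/Mono Prog-like cells. Targets of ATF4 had 7 raised and 6 lowered of 170 pairs in WT (4.12% and 3.53%, both under the background) and 3 and 26 in Tet2-KO (1.76% and 15.3%), where Mthfd2 (-0.93), an enzyme of mitochondrial folate metabolism, Aars (-0.74), a tRNA synthetase, and Slc7a5 (-0.70), an amino acid transporter, were lowered in Gran/Mono Prog-like cells. Cytosolic and mitochondrial heat shock genes, a list outside the ER, had 0 raised and 18 lowered of 162 pairs in WT (11.1% lowered). In Tet2-KO they had 1 and 50 (0.617% and 30.9%). Hsph1 (-0.86 and -1.42) and Hspa8 (-0.62 and -1.01) were lowered in Gran/Mono Prog-like cells. The mitochondrial Hspd1 and Hspe1 were lowered in 2 and 3 classes in WT and in 6 and 9 in Tet2-KO. Hspa1a, Hspa1b and Dnajb1 had no lowered call (medians 0.16, 0.31 and 0.07 in WT, 0.32, 0.53 and 0.03 in Tet2-KO). Falls were thus also called among chaperones outside the ER.

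For loss of Tet2 by itself, edgeR called no member in the fit reported here. With vehicle, no pair of the 469 was called higher or lower in Tet2-KO than in WT by edgeR, where 0.0218% and 0.0131% of all pairs were called. Of the member pairs, 48 had an unadjusted p under 0.05 and DESeq2 called 1, Hspa5 in Mono-like cells, while edgeR without the low-count filter called 4 higher. The log2 fold change of Hspa5 was above 0 in 16 of 16 classes (median 0.25), none of them called. The interaction, which asks whether IL1β acted differently in the 2 genotypes and uses the same vehicle mice, had no call (background 0.00261% higher and 0.000871% lower), with 55 pairs at an unadjusted p under 0.05 and 0 calls by DESeq2. Its median over the members was -0.18, against -0.00 over all genes, and the values of Hspa5 were below 0 in 16 of 16 classes (median -0.46). Classes of 1 mouse share its libraries, so these are not 16 separate observations, and the larger count of lowered members in Tet2-KO was not shown to differ from that in WT. Counts at an unadjusted p under 0.05, here and elsewhere, have no share of all genes beside them and are not read as an excess.

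With IL1β, 1 pair differed between genotypes, Sel1l in plasma cell-like cells (background 0.102% higher and 0.0723% lower, 43 pairs at an unadjusted p under 0.05, 2 by DESeq2). Sel1l (chr12:91806043-91849157) had 1262, 1695, 689 and 1277 CPM in the WT IL1β mice and 635, 525, 411 and 539 in the Tet2-KO IL1β mice, a log2 fold change of -1.22 ± 0.23 (edgeR, adjusted p = 0.0097). Every Tet2-KO mouse lay below every WT mouse. With vehicle the values were 1071, 1176, 848 and 948 in WT and 316, 466, 715 and 618 in Tet2-KO, also without overlap, but the difference of -0.86 ± 0.25 was not called (edgeR, adjusted p = 0.39). The call with IL1β was lost without Tet2-KO IL1β mouse 2, with pools as replicates and among cells with 3 to 6% mitochondrial UMIs, and plasma cell-like cells numbered 12 to 130 per mouse.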

How the data were processed

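Lineage-depleted marrow of 16 mice was measured as UMI counts per gene and cell barcode in 8 libraries of 2 tagged mice. The deposited counts were made by the authors with Cell Ranger 3.1.0 on mm10 (GRCm38), and the submitters' processing notes also name Seurat 3.2.3. No normalised column was used, and no column lacked a sample. Cells with at least 750 genes and at most 10% mitochondrial UMIs were kept, and tags were called with HTODemux (Seurat 5.3.0), which also marked doublets (4.15% of kept cells). The 34.9% of kept cells with no call (14.3 to 49.8% per library) were left out, except in the fits with pools as replicates, which summed them as well. Leiden clustering (leidenalg 0.10.2, resolution 1.5, 30 components of 2000 variable genes, 20 neighbours) used the 11949 assigned cells of the WT vehicle mice. It gave 36 clusters, of which 33 were named from markers. Cells of the other groups took the most common cluster among their 20 nearest WT vehicle cells. UMIs were summed per mouse and class (at least 10 cells, at least 3 mice per group) and fitted with edgeR 4.0.16 (R 4.3.3; filterByExpr, TMM, glmQLFit and glmQLFTest, 4 group means in 1 fit per class), with Benjamini-Hochberg adjustment over all genes of a class. The SE is the log2 fold change divided by the root of F. A mouse held 4388604 to 44152768 UMIs over all classes. The precision of each comparison is its SE, with at least 3 mice per group. The SE rests on 1 estimate of the spread shared by the 4 groups of a class. DESeq2 1.42.0 was an alternative. Promoters came from RefSeq (GRCm38.p6), and transcript lengths from GENCODE M21 annotation matched 27645 of 27998 genes and all 32 members. The scripts were tested on simulated data with known fold changes.

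The 32 members and all lists were chosen with earlier results of these data known. Named with values per mouse were up to 4 called members in each direction by size per comparison and class, and, whatever their calls, Hspa5, Hsp90b1, Calr, Pdia6, Xbp1, Atf4, Ddit3 and Herpud1 in HSC-like and Gran/Mono Prog-like cells. All 4 values of a group are printed for those 2 classes, except for Dnajb9 in Gran/Mono Prog-like cells and Dnajb11 in HSC-like cells. These exceptions are given by the log2 fold change alone. Other classes are given by their lowest and highest mouse or by the log2 fold change. Spcs2, Pdia3, Pdia4 and Dnajc3 are named beyond the 4 in a class, after their values were seen, and by the log2 fold change. The alternatives were DESeq2, no TMM factors, no low-count filter, each mouse left out, mouse or pool number as a block, and pools as replicates. Others were at least 30 cells and a marker gate, which kept the cells of a class with at least 2 of its markers detected. Added after seeing the data were clusters at resolution 2 and cells with 3 to 6% mitochondrial UMIs. A trend with length and GC content (splines of 4 degrees of freedom) was also removed, likewise after seeing the data.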

Additional observations from a re-analysis of the deposited data

Results flagged for a closer look

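In 136 groups of 4 mice of the members named in HSC-like and Gran/Mono Prog-like cells, 5 held a mouse set apart from the other 3 (gap over range above Dixon's 95% critical value), and chance gives about 1 in 20 such groups. In Gran/Mono Prog-like cells Ssr3 stood at 319.9 CPM in WT IL1β mouse 3. In HSC-like cells Ppib stood at 95.9 CPM in WT IL1β mouse 3, below the other mice of its group. Hsp90b1 stood at 586 CPM in Tet2-KO vehicle mouse 3, above the rest of its group. Tet2-KO IL1β mouse 1 stood above its group for Sdf2l1 (47.3 CPM) and Ssr3 (355 CPM) in HSC-like cells.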

How the results depend on the processing

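The counts of called pairs of member and class kept within 1.5 times of those reported under the alternatives run, with these exceptions. Without TMM factors 88 pairs were higher with IL1β in WT and 39 in Tet2-KO, and 2 were lower in Tet2-KO than in WT with IL1β. With the 8 pools as replicates IL1β raised 20 and lowered 26 in WT and raised 5 and lowered 49 in Tet2-KO, and 0 pairs differed between genotypes with IL1β. DESeq2 called 1 pair higher in Tet2-KO with vehicle and 2 lower with IL1β, and without a low-count filter 4 and 2 were called. Among cells with 3 to 6% mitochondrial UMIs 0 pairs differed between genotypes with IL1β. With each mouse left out in turn, the raised pairs numbered 22 to 46 and the lowered 31 to 53 in WT, and 11 to 33 and 59 to 90 in Tet2-KO, the pairs lower in Tet2-KO with IL1β 0 to 2, and the other counts stayed at 0. Counts moved by over 1.5 times without WT vehicle mouse 1 (22 raised in WT), WT vehicle mouse 3 (31 lowered in WT), WT IL1β mouse 3 (32 lowered in WT), and Tet2-KO vehicle mouse 3 or 4 (13 or 11 raised in Tet2-KO). The pairs lower in Tet2-KO with IL1β numbered 0 without Tet2-KO IL1β mouse 2 and 2 without Tet2-KO vehicle mouse 3 or 4 or WT IL1β mouse 3. The cause of these changes was not tested, save that pools leave 2 values per group and also hold the cells with no tag call.

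Of the 202 called pairs, 88 lost their call without some mouse and 114 did not, and no called value changed sign under any alternative. Uncalled values near 0 changed sign. Atf4 in Tet2-KO HSC-like cells was 0.00382 with the marker gate, 0.000411 without TMM factors, 0.10 with the trend removed, and -0.36 to 0.24 with a mouse left out. Xbp1 there was -0.0223 in the mitochondrial band, -0.58 at resolution 2, -0.16 with the gate, and -0.0773 to 0.0985 with a mouse left out. Atf4 in WT Gran/Mono Prog-like cells was 0.0119 with DESeq2, 0.0141 with no filter, 0.0482 in the band, 0.19 without TMM factors, 0.00462 with pools, 0.17 with the trend removed, and -0.16 to 0.13 with a mouse left out. Herpud1 in WT Gran/Mono Prog-like cells ran from -0.15 to 0.25 and Ddit3 in WT HSC-like cells from -0.42 to 0.35 with a mouse left out. Pdia6 in WT HSC-like cells was -0.0886 at resolution 2 and -0.000790 with the trend removed.

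Mouse numbers did not pair the samples. Correlations of deviations between same-numbered mice, in HSC-like and Gran/Mono Prog-like cells, ran from -0.169 to 0.154. In 9 of 32 comparisons a mouse correlated best with its own number, each mouse being counted more than once. With the mouse number as a replicate block, IL1β raised 41 and lowered 49 pairs in WT and 22 and 89 in Tet2-KO, and with the pool number as the block 44 and 51, and 24 and 93. The 30-cell minimum left 12 classes.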
